A study of Mus musculus with 8 samples.

Results

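Cells make microRNAs in steps, and the 10 genes described here encode the proteins that carry them out. In the nucleus the Microprocessor, made of the RNase III enzyme Drosha and its RNA-binding partner Dgcr8, cuts hairpin precursors out of long transcripts. Exportin-5, the product of Xpo5, carries the precursors to the cytoplasm, where Dicer1 with its cofactor Tarbp2 trims them to duplexes. An Argonaute protein (Ago1, Ago2, Ago3 or Ago4) keeps a single strand of the duplex as its guide and binds messages through the guide's seed. Tnrc6a, a GW182 protein, then links Argonaute to the enzymes that shorten poly(A) tails and remove caps. Ago2 is the Argonaute best known for cutting a fully matched target. In neurons this pathway is needed for survival, dendrite growth and local control of translation at synapses.

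The members were taken by symbol from the deposited table of 24883 gene rows, and all 10 were found, once each, under their current symbols. Each of the 10 was among the 13912 rows with a mean of at least 0.5 FPKM, the rows that were tested. FPKM is a count of sequenced fragments scaled to transcript length and to library size, so levels of different genes can be set side by side. The study injected a locked nucleic acid (LNA) oligonucleotide into the cortex of adult C57BL/6J mice on postnatal day 122 and took the visual cortex on day 129, 7 days later. The control group of 4 libraries received a scrambled LNA, and the other group of 4 an LNA directed against miR-29a. Such an oligonucleotide pairs with the mature microRNA and keeps it from its targets. Both groups thus carry the injection and an LNA. No uninjected cortex is in the comparison, which asks how transcripts differ when the oligonucleotide is directed at miR-29a. Whether each library is a mouse of its own is not stated in the labels, so the p-values rest on library-to-library spread of unknown origin, possibly technical.

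The libraries were alike in depth and detection, and none duplicated another. The labels give about 30 M reads per sample, and the spacing of low values put relative depths at 0.973 to 1.16 of scrambled replicate 1. Pairs of libraries correlated at 0.931 to 0.963 on the log2 scale. Scrambled replicate 2 stood apart on the first principal component (-34.4, with the rest from -10 to 15.9), scrambled replicate 3 on the second and anti-miR-29a replicate 3 on the third, and these components held 19.7%, 17.3% and 15.6% of the variance. All 6 neuronal markers were well expressed, summing to 2713 to 2863 FPKM in scrambled and 2604 to 2906 FPKM in anti-miR-29a libraries. The groups did not overlap in 2 of them, Syt1 and Gad1, both lower in anti-miR-29a libraries (-0.097 and -0.073 log2 units). Among all tested rows 6.31% did not overlap, and 2.29% of all tested rows did so with lower values. Rbfox3, Snap25, Slc17a7 and Gad2 overlapped, with log2 differences of -0.034 to 0.0009. The 5 oligodendrocyte markers, 0 of them higher on average, summed to 745.9 to 1542 and 838.4 to 1119 FPKM. The 5 markers of infiltrating leukocytes, 3 of them tested, summed to 1.27 to 2.72 and 1.49 to 5.05 FPKM. Of these the macrophage marker Ms4a7 did not overlap (limma, adjusted p = 0.201). It read 0 to 0.219 FPKM in scrambled and 0.601 to 1.51 FPKM in anti-miR-29a libraries. Ptprc and S100a8, also tested, overlapped, with log2 differences of -0.15 and 0.26, and Cd3e and Ccr2 were below the filter. The 7 markers of meningeal and perivascular fibroblasts summed to 321.4 to 501.3 and 467.9 to 712.0 FPKM, and 5 of the 6 tested were higher on average. Most of that sum was Ptgds, with means of 398.6 and 607.1 FPKM, and the tested marker that was lower was Pdgfra (-0.098 log2 units). The 5 astrocyte markers summed to 292.0 to 465.8 and 345.8 to 622.2 FPKM, and the 5 microglial markers to 117.8 to 177.7 and 142.9 to 183.9 FPKM. Gfap made up much of the astrocyte sum, with means of 168.9 and 274.8 FPKM (0.72 log2 units). Aqp4 and Gja1 differed by 0.29 and 0.26 log2 units, and Slc1a3 and Aldh1l1 by -0.004 each. No marker passed the test or was at 0 in all libraries, and the part of cell makeup in the values below was not tested. In bulk tissue fewer cells of a type and less RNA per cell cannot be told apart.

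The sequences that connect the treatment to these genes are the seed of miR-29a and its matches in their messages. The mature microRNAs of the family are given from RefSeq (GRCm38.p6) with the seed, bases 2 to 8, in capitals, because all 3 share it.
miR-29a-3p: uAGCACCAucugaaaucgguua
miR-29b-3p: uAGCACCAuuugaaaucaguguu
miR-29c-3p: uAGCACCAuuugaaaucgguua
The table's rows for the 4 precursors of this family were listed at 0 in every library, so the amount of miR-29a was not read here. A match to the seed's complement, TGGTGCT, was looked for on the sense strand of the longest annotated 3′ UTR of each gene (GENCODE M21, the assembly of mm10). Of the 10 members 4 held at least 1 match, and across 21019 annotated 3′ UTRs 13.1% did. Their sites are given 5′ to 3′ with the match in capitals, to show which genes of the pathway carry the letters that miR-29a could pair with.
Dicer1 (chr12:104690392-104690398, minus strand): gcattttcccgtTGGTGCTacgtttat
Xpo5 (chr17:46243368-46243374, plus strand): cctcctcctgccTGGTGCTtggggtct
Ago1 (chr4:126435572-126435578, minus strand): gagaggctgggtTGGTGCTctcccctt
Ago3, nearer the stop codon (chr4:126340058-126340064, minus strand): cttttttgaagaTGGTGCTgtagattt
Ago3, farther from it (chr4:126334741-126334747, minus strand): aattcctttcggTGGTGCTaaagtagt
In Dicer1 and in the second Ago3 site an A follows the match, which makes it an 8mer, and 2.85% of all 3′ UTRs hold one. Long 3′ UTRs hold a match more often, and the members' lengths differ widely. The 3′ UTR of Ago3 is 12742 nt long, and 65.2% of the 46 annotated 3′ UTRs within 0.8 to 1.25 times that length had a match. For Ago2, at 11064 nt and without any, the share was 66.7% of 78. The shares were 33.0% for Dicer1 (3851 nt), 37.7% for Ago1 (4491 nt) and 12.7% for Xpo5 (1327 nt). A match is a description of the sequence and does not show binding.

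None of the 10 members passed the test across all genes. limma with Benjamini-Hochberg adjustment called 0 of them at 0.05, where 0.0144% of all tested rows were called, 2 rows in all, with 0.00719% higher and 0.00719% lower. The smallest adjusted p among the members was 0.376, for Ago2. At an unadjusted p under 0.05 the count was 1 member, Ago2, a share near the 10.7% of all tested rows (7.54% higher and 3.18% lower). This count was 0 without anti-miR-29a replicate 1, where Ago2 had an unadjusted limma p of 0.0594 (adjusted p = 0.485). The 2 groups of libraries did not overlap in 2 members, Ago2 lower and Dgcr8 higher, against 6.31% of all tested rows. By direction the background was 2.29% lower and 4.02% higher. The median difference of the members was -0.043 log2 units, with 0.026 over all tested rows. Differences are given as anti-miR-29a minus scrambled on the scale of log2(FPKM + 0.1), which understates the change of low genes.

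**Figure D1:**
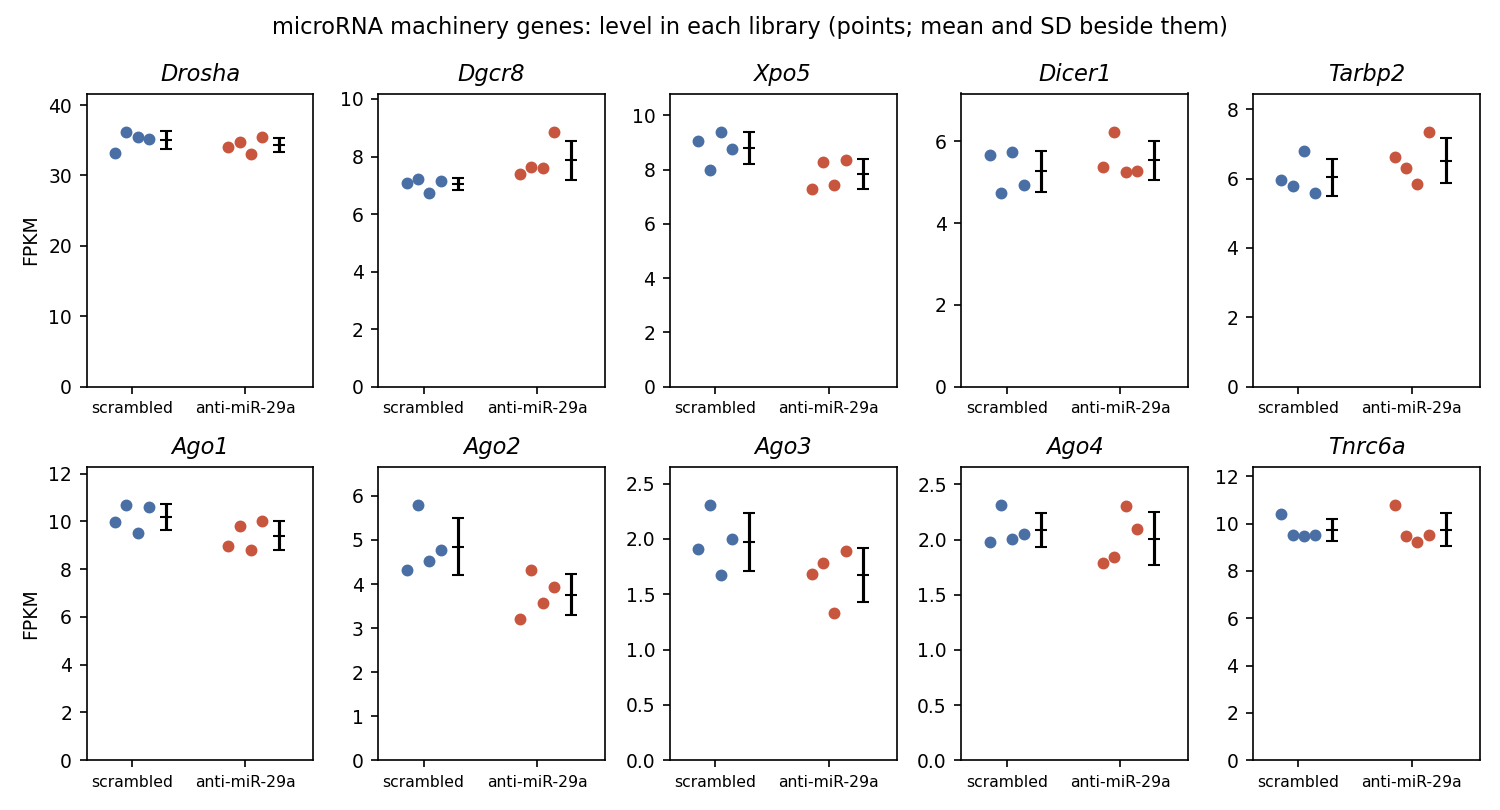
FPKM (vertical axes, from 0) of the 10 genes in each of the 4 scrambled (blue) and 4 anti-miR-29a (red) libraries, with the mean and SD beside the points. Ago2 and Dgcr8 are the panels in which the groups do not overlap, by 0.01 FPKM or so in Ago2 (lowest scrambled 4.32, highest anti-miR-29a 4.31).

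The Microprocessor genes were expressed at unlike levels and did not differ in the same direction. Drosha, the nuclease, had the highest level of the 10, 33.2, 36.2, 35.5 and 35.3 FPKM in the scrambled libraries and 34.0, 34.7, 33.1 and 35.5 FPKM in the anti-miR-29a libraries. The groups overlapped and lay within a narrow band. Its log2 difference was -0.030 (SE 0.051; limma, adjusted p = 0.861), and the 95% interval of -0.14 to 0.08 was the narrowest of the 10. It ran from -0.056 to -0.013 with 1 library left out.

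Dgcr8, the hairpin-binding subunit that holds Drosha in place, read 7.07, 7.22, 6.73 and 7.14 FPKM in scrambled libraries and 7.38, 7.63, 7.59 and 8.86 FPKM in anti-miR-29a libraries. Every anti-miR-29a library was above every scrambled one, and replicate 4 of that group was well above the other three. The mean was 7.04 ± 0.212 and 7.86 ± 0.674 FPKM (SD, n = 4 per group). They differed by 0.15 log2 units with a standard error of 0.084, which did not pass (limma, adjusted p = 0.536). The difference was 0.097 without anti-miR-29a replicate 4, and under median centring or quantile normalization the groups overlapped. Dgcr8 shares 825 nt, 10.7% of its annotated exon sequence, with Trmt2a on the other strand, and the library kit does not mark strand. Trmt2a, a tRNA methyltransferase gene, read 5.14 ± 0.352 and 5.64 ± 0.919 FPKM with overlapping groups.

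The Dgcr8 message is also known as a substrate of the Microprocessor, which cuts hairpins within it and so limits the supply of its own subunit. A microRNA from such a hairpin is shown because its letters lie inside a Dgcr8 exon, on the same minus strand (seed in capitals, RefSeq, GRCm38.p6).
miR-1306-3p (chr16:18284248-18284268): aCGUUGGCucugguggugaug
The table's row for this precursor was listed at 0 in all 8 libraries, so its cutting has no reading of its own.

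Because the values are per transcript length, the 2 messages could also be set against each other within each library. The size of their ratio depends on the gene models behind the FPKM, which the sources do not name. The ratio of Drosha to Dgcr8 FPKM was 4.70, 5.02, 5.28 and 4.94 in scrambled libraries and 4.61, 4.55, 4.36 and 4.01 in anti-miR-29a libraries. The groups did not overlap, and the means were 4.98 ± 0.238 and 4.38 ± 0.271 (SD, n = 4 per group). The difference of -0.603 was between -0.697 and -0.477 when any 1 library was left out. No test was made on this ratio, and its lower values go with the higher Dgcr8 level.

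Xpo5, the exporter of precursors, was lower on average in anti-miR-29a libraries without passing. It read 9.04, 7.98, 9.40 and 8.77 FPKM in scrambled and 7.27, 8.29, 7.45 and 8.34 FPKM in anti-miR-29a libraries. Scrambled replicate 2 was below anti-miR-29a replicates 2 and 4, and the other scrambled libraries were above all 4. The log2 difference was -0.16 (SE 0.086; limma, adjusted p = 0.518) and a 95% interval of -0.36 to 0.03. Without scrambled replicate 2 it was -0.21 (limma, adjusted p = 0.553). The groups then did not overlap, which follows from leaving out the library that overlapped. The gene lies on chromosome 17 at 46202782 to 46243598.

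Dicer1, which makes the mature duplex, read 5.66, 4.74, 5.73 and 4.93 FPKM in scrambled and 5.37, 6.24, 5.25 and 5.28 FPKM in anti-miR-29a libraries. The groups overlapped broadly, and anti-miR-29a replicate 2 was the highest of the 8. Its log2 difference was 0.072 with a 95% interval of -0.16 to 0.30 (limma, adjusted p = 0.837). It was 0.014 without anti-miR-29a replicate 2, 0.024 without scrambled replicate 2, 0.043 without scrambled replicate 4 and 0.11 without scrambled replicate 3. Dnmt3a, a reported miR-29 target, has 5 matches in its 3′ UTR, where Dicer1 has 1. It read 9.0 ± 0.727 and 14.6 ± 1.70 FPKM, with 0.69 log2 units between them. Dnmt3a did not pass (limma, adjusted p = 0.0749), and its interval ran from 0.47 to 0.90. The interval of Dicer1 ended below that range, as did those of all the members, the highest limit being 0.34 for Dgcr8. The contrast is therefore not particular to Dicer1, and whether miR-29a acts on Dicer1 was not tested.

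Tarbp2, the double-stranded RNA binding cofactor of Dicer, read 5.97, 5.79, 6.81 and 5.59 FPKM in scrambled and 6.61, 6.29, 5.83 and 7.35 FPKM in anti-miR-29a libraries. Again the groups overlapped, with a log2 difference of 0.11 (limma, adjusted p = 0.736; 95% interval -0.12 to 0.34). It was 0.050 without anti-miR-29a replicate 4 and 0.17 without scrambled replicate 3. The ratio of Dicer1 to Tarbp2 was 0.873 ± 0.0561 and 0.856 ± 0.117 (SD, n = 4 per group), with overlapping ranges.

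The 4 Argonaute genes all had a negative difference, and 43.4% of all tested rows did. Ago1, Ago3 and Ago4 lie next to each other on the minus strand of chromosome 4, between 126331704 and 126533472, whereas Ago2 is on chromosome 15 at 73095844 to 73184935. Ago1 was the most abundant and Ago2 the next, and Ago3 and Ago4 were lowest and overlapped each other.

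Ago2, the slicing Argonaute, read 4.32, 5.79, 4.51 and 4.77 FPKM in scrambled libraries and 3.22, 4.31, 3.57 and 3.93 FPKM in anti-miR-29a libraries. All anti-miR-29a libraries were below all scrambled ones, but replicate 2 of the first and replicate 1 of the second were almost level. Means were 4.85 ± 0.653 and 3.76 ± 0.469 FPKM (SD, n = 4 per group). The log2 difference was -0.36 with a standard error of 0.13, a 22.1% lower level, and it did not pass (limma, unadjusted p = 0.0205, adjusted p = 0.376). Its 95% interval of -0.65 to -0.068 was the single one among the 10 that left out 0. Scrambled replicate 2, the library that stood apart, also had the highest Ago2 level, and without it the difference was -0.27 (limma, unadjusted p = 0.0633, adjusted p = 0.589). Chrac1 on the other strand shares 219 nt with Ago2 exons, 1.56% of their annotated sequence. It also peaked in that library, at 14.2 FPKM against 7.19 to 11.4 FPKM in the rest. Its groups overlapped, with a log2 difference of -0.035 (limma, adjusted p = 0.963), and its part in the Ago2 values was not tested.

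Ago1 read 9.99, 10.7, 9.54 and 10.6 FPKM in scrambled and 8.95, 9.81, 8.81 and 10.03 FPKM in anti-miR-29a libraries. The groups overlapped, though each anti-miR-29a value was below the scrambled mean. The log2 difference was -0.12 (limma, adjusted p = 0.625; 95% interval -0.29 to 0.06).

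Ago3 read 1.91, 2.30, 1.67 and 2.00 FPKM in scrambled and 1.68, 1.79, 1.33 and 1.89 FPKM in anti-miR-29a libraries. The groups differed by -0.23 log2 units (limma, adjusted p = 0.670; 95% interval -0.61 to 0.15). Ago4 read 1.98, 2.31, 2.00 and 2.05 FPKM and 1.79, 1.84, 2.31 and 2.09 FPKM, a difference of -0.056 (limma, adjusted p = 0.915). Both overlapped between groups, and the interval of Ago3 was wide (SE 0.17). Without anti-miR-29a replicate 3 the difference of Ago3 was -0.13, and with 1 library left out that of Ago4 ran from -0.12 to -0.0059. After removal of the length and GC trend, Ago4 stood at 0.016, of the other sign. Anti-miR-29a replicate 3 held the lowest Ago3 and nearly the highest Ago4 level of the 8 libraries.

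Summed over the family, Argonaute transcripts came to 19.1 ± 1.5 FPKM in scrambled and 16.8 ± 1.17 FPKM in anti-miR-29a libraries (SD, n = 4 per group), with ranges of 17.7 to 21.1 and 15.6 to 17.9 that overlapped. Ago2 made up 25.3% ± 1.6 and 22.3% ± 1.54 of the sum, and these ranges also overlapped (23.8% to 27.5% and 20.6% to 24.3%). Ago1 made up 50.7% to 54.9% and 55.0% to 57.2%, which did not. The shares of one library add to a whole, so a lower Ago2 share goes with a higher share of another member by construction, and none of them was tested.

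**Figure D2:**
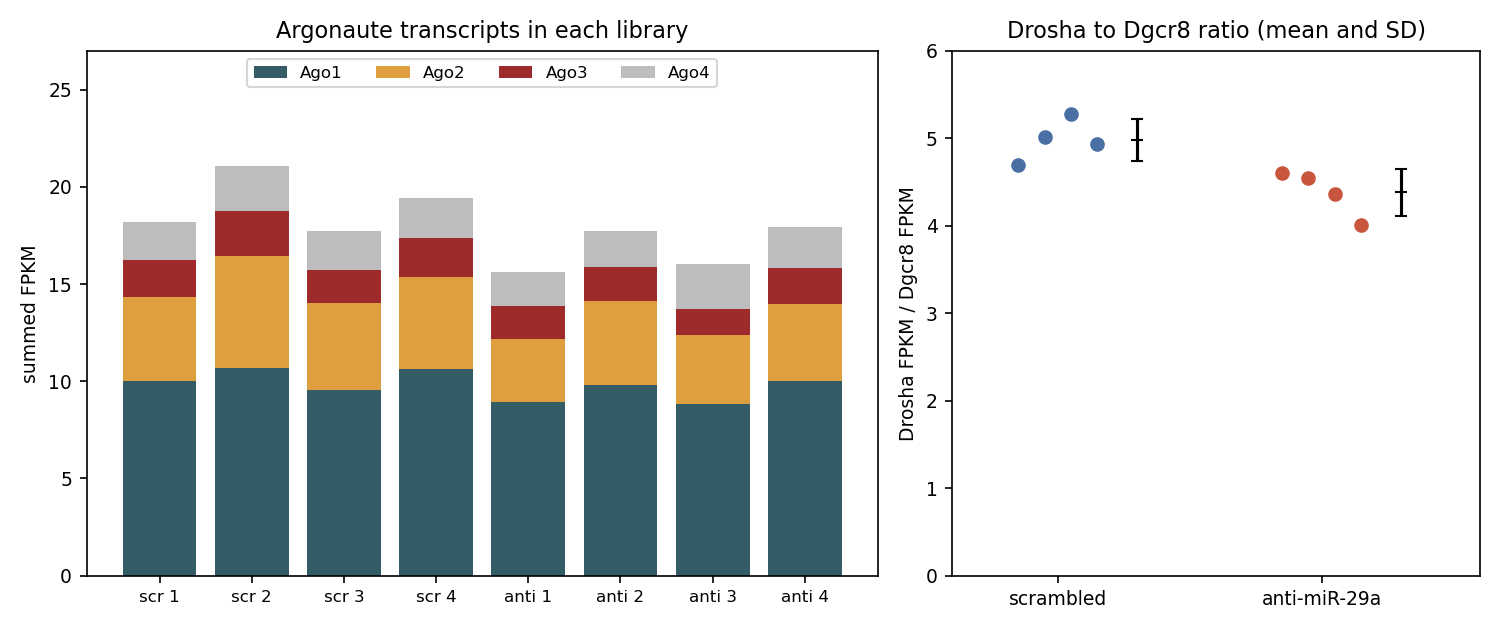
Left, FPKM of the 4 Argonaute genes stacked for each library (scr, scrambled; anti, anti-miR-29a; vertical axis from 0), with sums of 15.6 to 21.1. Right, the ratio of Drosha to Dgcr8 FPKM in each library with the mean and SD, 4.70 to 5.28 in scrambled and 4.01 to 4.61 in anti-miR-29a libraries.

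Tnrc6a, the scaffold that recruits deadenylases, was the member with the least difference. It read 10.4, 9.53, 9.47 and 9.52 FPKM in scrambled and 10.8, 9.48, 9.22 and 9.50 FPKM in anti-miR-29a libraries. Replicate 1 was highest in each group, and the replicate number is not known to pair samples. The log2 difference was 0.00 with a 95% interval of -0.17 to 0.17 (limma, adjusted p = 1.0), and its sign changed with the scaling. Its paralogs gave similar pictures: Tnrc6b read 4.95 ± 0.309 and 4.90 ± 0.328 FPKM, and Tnrc6c, the most abundant of the family, 11.6 ± 0.728 and 12.1 ± 0.897 FPKM (limma, adjusted p = 0.970 and 0.795). Tnrc6a made up 37.1% ± 2.04 and 36.4% ± 1.26 of the sum of the 3 genes.

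**Figure D3:**
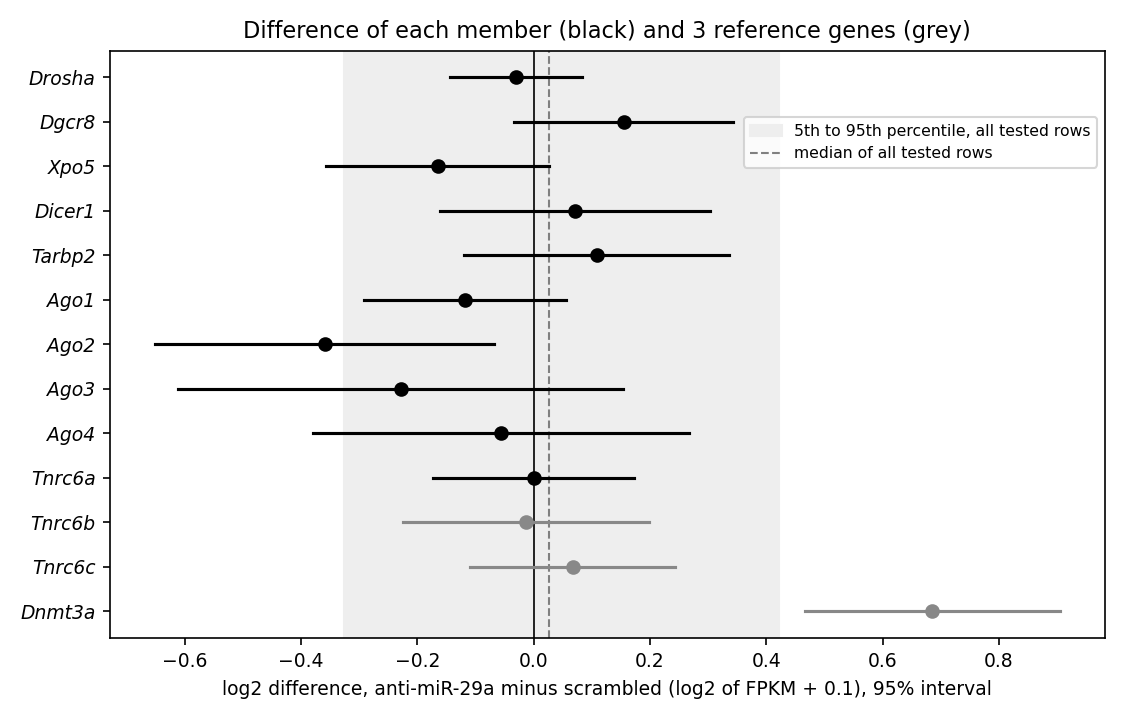
Log2 difference (anti-miR-29a minus scrambled, horizontal axis) with its 95% interval for the 10 genes in black and Tnrc6b, Tnrc6c and Dnmt3a in grey. The shaded band is the 5th to 95th percentile of all tested rows, -0.33 to 0.42, and Ago2 at -0.36 is the member outside it.

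Ordered by the scrambled mean, the levels ran from Drosha (35.1 FPKM) through Ago1 (10.2), Tnrc6a (9.73), Xpo5 (8.80), Dgcr8 (7.04), Tarbp2 (6.04), Dicer1 (5.27) and Ago2 (4.85) to Ago4 (2.09) and Ago3 (1.97). Drosha was 3.44 times as high as Ago1, the next gene. These levels rest on the transcript lengths the authors used, which are not known here, so the order between genes may depend on them. Among the scrambled libraries neighbours did not overlap at 4 steps: Drosha and Ago1, Tnrc6a and Xpo5, Xpo5 and Dgcr8, and Ago2 and Ago4. Over all 8 libraries the first and the last of these steps remained clear of overlap. From Ago1 down to Ago2 the ranges of neighbours across both groups therefore overlapped. Ranges do not compare 2 genes within a library. Dicer1 was below Tarbp2 in every library, with a ratio of 0.718 to 0.991. The order of Xpo5 and Dgcr8 was not kept, since in anti-miR-29a replicate 1 they read 7.27 and 7.38 FPKM.

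Across all tested genes the difference between the groups depended on transcript length, and several members are long. Genes within 0.8 to 1.25 times the length of Ago2's longest transcript (13800 nt) had a median difference of -0.11 over 192 genes, and Ago2 was 0.25 log2 units below that median. For Ago3 (15595 nt) the median was -0.068 over 115 genes. Measured from the medians of their own length, Ago1 stood at -0.067 and Ago4 at -0.016. Dicer1 (9851 nt) stood above its like, at 0.072 with a median of -0.088 over 689 genes. Dgcr8 (4320 nt) was 0.15 above a median of 0.0009, and Xpo5 (5081 nt) 0.15 below one of -0.017. With a smooth trend on length and GC content removed from each library, Ago2 was at -0.24 (limma, unadjusted p = 0.0628, adjusted p = 0.625), Ago3 at -0.066, Dicer1 at 0.19 and Dgcr8 at 0.18, and no member had an unadjusted p under 0.05.

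**Figure D4:**
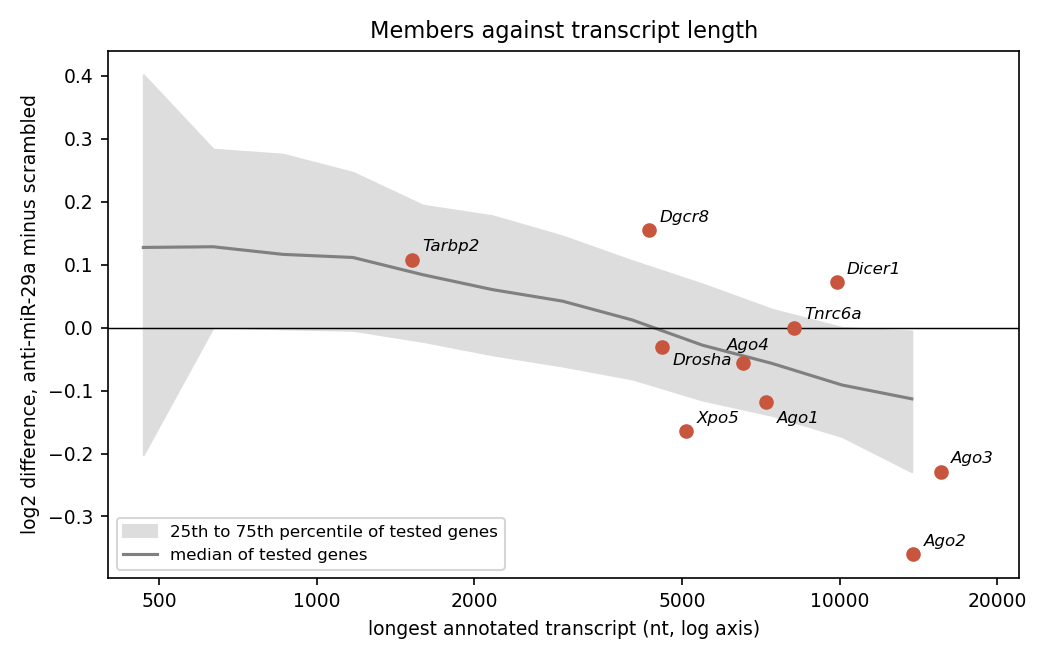
Log2 difference of the 10 genes (red) against the length of the longest annotated transcript (log axis), over the median (line) and 25th to 75th percentile (band) of tested genes in length classes. Ago2 and Ago3, the longest, are the lowest points, and Dgcr8 and Dicer1 lie above the band.

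For members with a miR-29 seed match the direction of the difference was not settled. Of the 4 with a match, 1 (Dicer1) had a positive difference and the others, Xpo5, Ago1 and Ago3, had negative ones, from -0.23 to 0.072 in all. Their intervals, -0.16 to 0.30 (Dicer1), -0.36 to 0.03 (Xpo5), -0.29 to 0.06 (Ago1) and -0.61 to 0.15 (Ago3), each include both signs. The 6 without a match ran from -0.36 to 0.15. Both 8mer carriers overlapped between groups. Ago2 and Dgcr8, the members whose groups did not overlap, hold no match in the longest annotated 3′ UTR. Whether a match had a part in any of these values was not tested.

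The wider pathway was then described with 6 lists, in which 98 tested genes are not among the 10 members. None of the 98 passed (limma, smallest adjusted p = 0.267), while 12 had an unadjusted p under 0.05, 9 higher and 3 lower, which is 12.2% beside 10.7% of all tested rows. The groups did not overlap in 10 of them, 10.2% beside 6.31%. These lists were assembled with earlier results of these data known, and the counts describe them.

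Among 9 other genes of nuclear processing, 5 had a positive difference and the median was 0.0004. Ncbp2, a subunit of the nuclear cap-binding complex, read 13.6 ± 1.76 and 15.9 ± 1.01 FPKM (limma, adjusted p = 0.432). Hnrnpa1, an RNA-binding protein that remodels some precursors, read 29.6 ± 2.80 and 26.0 ± 1.64 FPKM (adjusted p = 0.453 by limma), and Srrt, which brings capped transcripts to the Microprocessor, 26.1 ± 1.91 and 28.3 ± 2.59 FPKM. Their groups overlapped. In export, dicing and loading, 0 of the 11 other genes had an unadjusted p under 0.05 or groups that did not overlap. The shares over all tested rows were 10.7% and 6.31%, and the median of the 11 was -0.0058. Prkra, the second Dicer cofactor, read 4.79 ± 0.556 and 5.57 ± 1.46 FPKM, and Ptges3, a chaperone used in Argonaute loading, 32.8 ± 1.97 and 31.4 ± 0.937 FPKM.

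Genes of precursor tailing and turnover had a median of 0.13, with 7 of 9 tested genes above 0 (43.4% of all tested rows were below 0) and none passing. That median was 0.072 without scrambled replicate 2, 0.078 without anti-miR-29a replicate 1 and 0.083 without anti-miR-29a replicate 4. Zcchc6, a terminal uridylyl transferase that tails let-7 precursors, read 9.84 ± 0.219 and 11.3 ± 0.774 FPKM with no overlap, a log2 difference of 0.20 (limma, adjusted p = 0.382). Eri1, an exonuclease of small RNAs and histone messages, read 1.38 to 1.77 FPKM in scrambled and 1.89 to 2.28 FPKM in anti-miR-29a libraries, also without overlap (limma, adjusted p = 0.455). Dis3l2, which degrades tailed precursors, and the nuclease gene Xrn2 differed by 0.13 and -0.098 log2 units with overlapping groups. Lin28a was listed at 0 throughout, and Lin28b and Trim71 were below the filter at 0.472 ± 0.0877 and 0.111 ± 0.0441 FPKM in scrambled libraries.

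Among 13 other Argonaute partners the median was -0.021, with 5 above 0. Pum2, a Pumilio protein that binds 3′ UTRs, was the one gene of the 13 without overlap, beside 6.31% of all tested rows. It read 18.7 ± 1.16 and 16.5 ± 0.626 FPKM (limma, adjusted p = 0.383). The helicase gene Mov10 read 2.94 ± 0.623 and 3.47 ± 0.687 FPKM, and Fmr1, the fragile X protein gene, 8.55 ± 1.17 and 7.70 ± 0.804 FPKM. Wtip, a LIM-domain partner, differed by 0.28 log2 units, and its groups overlapped as did those of Mov10 and Fmr1. The 31 genes of deadenylation and decapping, which act after Tnrc6a, had a median of -0.0076 with 14 above 0. Cnot8, a deadenylase subunit, read 18.1 ± 0.764 and 20.5 ± 1.28 FPKM, and Pan2, the catalytic subunit of the other deadenylase complex, 4.19 ± 0.239 and 4.84 ± 0.251 FPKM. In both the groups did not overlap and neither passed (limma, adjusted p = 0.387 and 0.471). Eif4e2, a cap-binding repressor, read 12.7 ± 0.810 and 14.8 ± 1.11 FPKM, and Pabpc1, the main poly(A)-binding protein, 72.3 ± 6.23 and 79.9 ± 3.34 FPKM, both with overlapping groups.

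Transcripts that host microRNAs are the substrates the Microprocessor works on, and 18 of 25 tested had a positive difference, with a median of 0.095, where 43.4% of all tested rows were below 0 and their median was 0.026. The list's median was 0.058 without scrambled replicate 2. In 5 of the 25 the groups did not overlap, all higher, beside 4.02% of all tested rows, and none passed. Rian, a maternally expressed RNA that carries snoRNAs and a few microRNAs, read 123.8 to 127.6 FPKM in scrambled and 131.9 to 137.5 FPKM in anti-miR-29a libraries, higher by 0.11 log2 units (limma, adjusted p = 0.317). Mirg, the transcript of the same imprinted locus that carries its large microRNA cluster, had the other sign, at 20.1 ± 1.75 and 19.2 ± 4.61 FPKM with overlapping groups (-0.092 log2 units; limma, adjusted p = 0.848). Ctdsp2, a phosphatase gene whose intron holds a miR-26a, read 18.4 ± 1.42 and 22.2 ± 1.55 FPKM (adjusted p = 0.267 by limma). Egfl7, the endothelial host of miR-126, read 14.6 ± 1.78 and 17.6 ± 0.496 FPKM (adjusted p = 0.298 by limma), and the 5 endothelial markers summed to 33.6 to 43.2 and 38.5 to 45.6 FPKM. The part of endothelial content in the Egfl7 value was not tested. Srebf2, the host of miR-33 and a regulator of cholesterol synthesis, read 40.4 ± 3.06 and 34.6 ± 1.98 FPKM with overlapping groups (adjusted p = 0.312 by limma). These FPKM count the spliced host message and do not measure the microRNA.

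**Figure D5:**
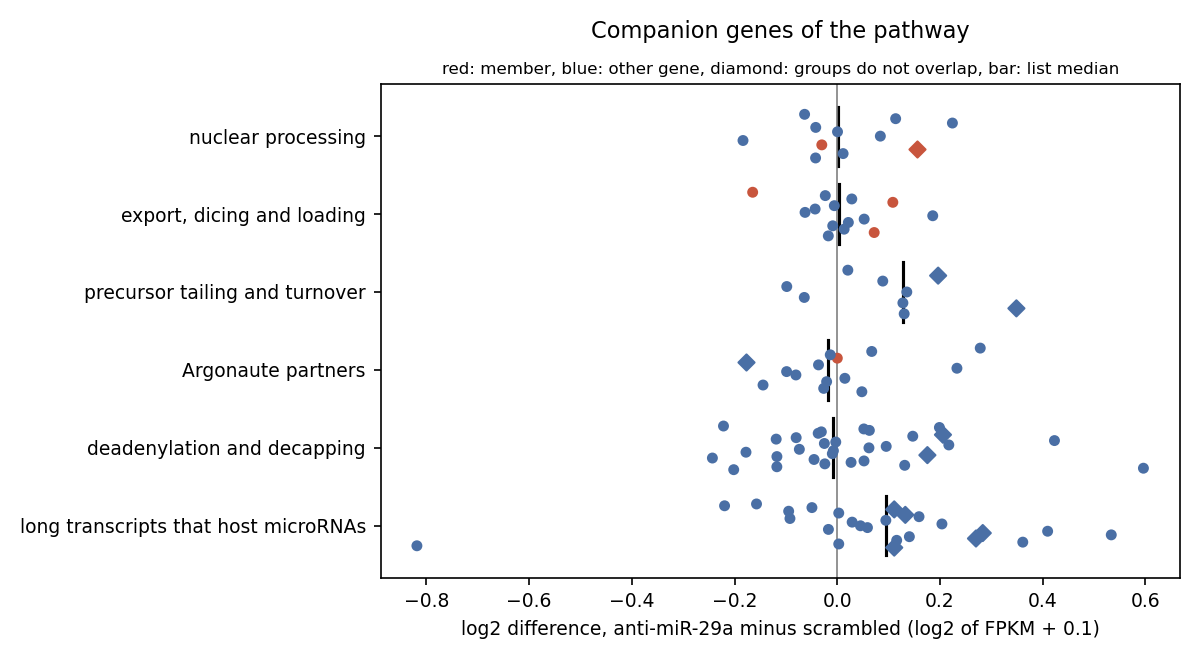
Log2 difference (anti-miR-29a minus scrambled, horizontal axis) of each tested gene in the 6 lists, with members in red, other genes in blue, diamonds where the groups do not overlap and a bar at each list's median. List medians run from -0.017 to 0.13, counting the members in them.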

How the data were processed

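RNA sequencing of 8 visual cortex samples was analysed from the table of FPKM values that the authors deposited. CASAVA 1.8.2, Bowtie, Cuffnorm and the mm10 build are named per the submitters' processing notes. The sources used here give neither the order of steps nor the annotation or Cuffnorm's scaling. FPKM values are not counts, so no count test was run and each library's depth is known only in relative terms. Rows with a mean of at least 0.5 FPKM (13912 of 24883) entered limma 3.58.1 (R 4.3.3) on the log2(FPKM + 0.1) scale, with a group term, a variance trend, two-sided tests and Benjamini-Hochberg adjustment at 0.05. Intervals are 95% and from this fit. The fit was also run on simulated normal values, drawn separately for each gene. These lack the length trend of the real libraries, so they do not show how the fit performs on them. Shares, ratios and list medians were not tested. Gene models, for lengths and 3′ UTRs, were those of GENCODE M21, which matched 98.4% of symbols (652 through an older symbol) and all 10 members. The length and GC trend was removed with mgcv 1.9.3. Named genes are the members, Tnrc6b, Tnrc6c, Dnmt3a and up to 4 genes of smallest p per list. Trmt2a, Chrac1, Syt1, Gad1, Ms4a7, Gfap, Ptgds, Pdgfra, Mirg, Lin28a, Lin28b and Trim71 were chosen after their values were seen. The members and lists were chosen with earlier results of these data known. Alternatives were other pseudocounts, filters and scalings, sample weights, robust empirical Bayes, a replicate block and each library left out in turn.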

Additional observations from a re-analysis of the deposited data

Results flagged for a closer look

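In 4 of 92 groups of 4 libraries, 1 library lay far from the other three by Dixon's 95% critical value for the gap over the range, and chance flags about 1 in 20 groups. Dicer1 read 6.24 FPKM in anti-miR-29a replicate 2 and 5.25 to 5.37 FPKM in the others of that group. Dgcr8 read 8.86 FPKM in anti-miR-29a replicate 4 and 7.38 to 7.63 FPKM in the others. Tnrc6a read 10.4 FPKM in scrambled replicate 1 and 9.47 to 9.53 FPKM in the others, and Eif4e2 13.9 FPKM in scrambled replicate 4 and 12.2 to 12.4 FPKM in the others.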

How the results depend on the processing

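Under all 18 alternatives the count of members passing stayed at 0. Of the 10 members, 8 kept their direction in each alternative that tested them. The exceptions were Ago4, at 0.016 with the length and GC trend removed, and Tnrc6a, at -0.032 under quantile normalization, -0.029 under median centring, -0.010 with sample weights and -0.049 to 0.033 with 1 library left out. Quantile normalization and median centring each gave 2 members with an unadjusted p under 0.05 (limma, Ago2 and Xpo5), the length and GC removal 0, and leaving out 1 library 0 to 1. Without scrambled replicate 2 that 1 member was Xpo5. A filter of at least 5 FPKM, which no longer tests Ago2, gave 0. Groups did not overlap in 1 member under quantile normalization, median centring and that filter, and in 2 to 3 with 1 library left out. Over all genes limma called 2 rows, against 1 with no filter, 1 at 5 FPKM, 0 after length and GC removal, 10 with robust empirical Bayes and 1 to 3 with a library left out. The adjusted p of Ago2 ranged from 0.331 to 0.625.

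Same-numbered libraries did not deviate together (correlations of -0.106 to 0.014). With 4 libraries per group this does not settle whether the numbers pair the samples, and no pairing is stated. With the replicate number as a block 0 rows were called, 0 members passed, and Ago2 stood at -0.36 (limma, adjusted p = 0.354).

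List medians were moved by scaling. Under quantile normalization they were -0.033 for nuclear processing, -0.064 for export, dicing and loading, and -0.050 for Argonaute partners, and under median centring -0.029 and -0.047 for the first and the last. After length and GC removal Argonaute partners stood at 0.030 and deadenylation and decapping at 0.044, and with no filter the microRNA hosts at 0.052. With 1 library left out the medians ran from -0.023 to 0.019 (Argonaute partners), -0.0048 to 0.026 (deadenylation and decapping), 0.072 to 0.16 (tailing and turnover) and 0.058 to 0.11 (hosts). The Argonaute and Drosha to Dgcr8 proportions had alternatives chosen after seeing the data. The difference in Ago2 share ran from -3.73 to -2.33 percentage points with a library left out. Requiring an 8mer left 2 members with a miR-29 site in place of 4.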
